A study of Mus musculus with 12 samples.

Results

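The clustered histone genes are the replication-dependent genes for the linker histone H1 and the core histones H2A, H2B, H3 and H4. They were taken as all genes whose name in the scanner files begins with Hist, a cluster number and h. The rule found 34 of the 27962 gene names on the array, with 44 of its 41174 distinct probes, and each gene was represented by its probe with the highest mean signal. The classes held 6 H1, 11 H2A, 8 H2B, 3 H3 and 6 H4 genes. C57MG, a mouse mammary epithelial cell line, was moved to plain DMEM and kept for 24 h with recombinant human Rspo2 (100 ng/ml), recombinant mouse Wnt3a (100 ng/ml), both proteins, or BSA, the carrier protein, as control. Each of the 4 groups had 3 monolayers described as biological replicates, and no group carried another agent or allele. Each monolayer gave 1 of 12 single-color arrays, and this number of arrays limits the precision. Of the luminal markers, Krt8 was detected but Krt18, Krt19, Epcam and Cdh1 were not, and of the basal and myoepithelial markers Krt14, Trp63, Acta2 and Krt5 were detected but Cnn1 and Myh11 were not. The mesenchymal markers Vim, Fn1, Col1a1 and Pdgfrb were detected. Of the leukocyte markers Cd68 and Cd3e were and Ptprc was not, and of the endothelial markers Cdh5 was and Pecam1 was not.

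DNA in the nucleus is wound around a core of H2A, H2B, H3 and H4, and H1 binds where the DNA enters and leaves it. Dividing cells make most of their histones during S phase from these clustered genes, whose mRNAs lack introns and usually end in a stem-loop bound by Slbp in place of a poly(A) tail. Some clustered genes can also yield polyadenylated mRNA. The labeled cRNA was primed with oligo-dT from the poly(A)+ population, so a signal reports polyadenylated or internally primed histone RNA, and which of these was measured was not tested. In bulk RNA, fewer cells that express a gene cannot be told apart from less RNA in each cell.

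The upstream sequences of the histone genes are given first because most members shared promoter letters that the choice of genes did not use. Through their accessions 27 of the 34 genes matched a promoter in the RefSeq table (GRCm38.p6), and the 250 bases before the start were searched on both strands for 3 motifs, none of which lies within another. The CCAAT box (CCAAT) was present in 24 of 27 members (88.9%) and in 34.5% of the 27025 promoters of the table. The hexamer of the TATA box (TATAAA) was present in 15 of 27 members (55.6%) and in 13.0% of all promoters. No position or strand was required. The hit nearest the start lay 94, 142, 198 and 250 bases before it in Hist1h2ba, Hist1h2ae, Hist1h2bk and Hist1h4f, and 26 to 42 bases in the others. In Hist1h3d the capitals below show it on the other strand, as TTTATA. The octamer (ATTTGCAT), a motif known from H2B promoters, was present in 9 of 27 members (33.3%) and in 1.61% of all promoters. It lay in 6 of 10 H2A and 3 of 5 H2B promoters and in none of the 6 H1, 2 H3 and 4 H4 promoters. The windows of Hist1h2aa and Hist1h2ba, neighbors that point away from each other, share most of their bases, so these genes are not separate examples. The last 150 bases before the start are shown for 1 gene of each class, with the motifs in capitals. Hist1h1b (chr13:21780626-21780775, minus strand) is the H1 gene with the largest change. Hist1h2aa (chr13:23934287-23934436, plus strand) is an H2A gene with an octamer. Hist1h2bk (chr13:22035671-22035820, plus strand) is an H2B gene with an octamer close to the start. Hist1h3d (chr13:23575613-23575762, plus strand) and Hist1h4d (chr13:23581418-23581567, plus strand) stand for H3 and H4.
Hist1h1b: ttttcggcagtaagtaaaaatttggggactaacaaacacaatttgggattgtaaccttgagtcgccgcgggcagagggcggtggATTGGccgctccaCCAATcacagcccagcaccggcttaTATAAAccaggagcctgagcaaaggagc
Hist1h2aa: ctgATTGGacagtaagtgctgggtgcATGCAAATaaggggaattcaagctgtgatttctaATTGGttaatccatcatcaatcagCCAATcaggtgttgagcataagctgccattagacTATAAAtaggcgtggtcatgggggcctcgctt
Hist1h2bk: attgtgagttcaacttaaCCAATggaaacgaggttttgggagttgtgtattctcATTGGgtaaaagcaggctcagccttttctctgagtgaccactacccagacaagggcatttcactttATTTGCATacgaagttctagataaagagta
Hist1h3d: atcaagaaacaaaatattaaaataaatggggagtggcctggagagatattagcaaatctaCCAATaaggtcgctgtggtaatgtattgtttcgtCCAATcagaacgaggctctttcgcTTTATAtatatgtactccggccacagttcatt
Hist1h4d: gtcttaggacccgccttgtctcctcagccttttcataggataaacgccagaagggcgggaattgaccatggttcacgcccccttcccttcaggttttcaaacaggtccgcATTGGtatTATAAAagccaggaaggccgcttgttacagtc
The TATAAA of Hist1h1b starts 28 bases before the annotated start and that of Hist1h4d 32 bases before it. These letters describe the windows and were not related to any measured change.

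Of the 34 genes, 31 were detected, meaning that in 1 group or more the probe exceeded background on each of the 3 arrays. All 3 H3 and all 6 H4 genes were detected, as were 5 of 6 H1, 10 of 11 H2A and 7 of 8 H2B genes. The testis H1 gene Hist1h1t was above background on 1 BSA array and 2 arrays with both proteins, Hist1h2ac on no array, and Hist3h2ba on 1 BSA and 1 Rspo2 array, so no change is given for them. Of the 31, 29 were above background on all 12 arrays. The other two passed through the group with both proteins alone, which favors a higher value there: Hist2h2aa2 was above background on 2, 1, 2 and 3 arrays with BSA, Rspo2, Wnt3a and both, and Hist1h2be on 0, 1, 1 and 3. Between 29 and 32 of the 34 genes, and between 51.3% and 64.2% of all probes, were above background on each array, and no member had a spot marked as saturated. The probes of the testis genes Hist1h2aa and Hist1h2ba were above background on all 12 arrays. Each lists 1 transcript, but probe sequences were not used, so signal from near-identical genes was not tested for them. The Hist1h2aa probe had a mean intensity of 165195, beside 172528 for that of Hist1h2af, so expression of the testis genes themselves is not claimed. For 12 of the 31 detected members the files list several RefSeq transcripts for the probe (Hist1h2bm, for example, with Hist1h2bg, Hist1h2bc and Hist1h2bh), so their signals can come from near-identical genes and they are not independent of one another.

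Signals are log2 values after subtraction of the 75th percentile of that array. Most clustered histone genes read higher in every treatment group than with BSA, by less than 2-fold. With limma over all 12 arrays and Benjamini-Hochberg adjustment over 22751 detected probes, 15 of 31 members rose with Rspo2 (adjusted p under 0.05), against 10.9% of all detected probes, and 0 fell, against 5.92%. With Wnt3a 22 of 31 rose, against 18.3% of probes, and 0 fell, against 13.2%. With both proteins 21 of 31 rose, against 21.9% of probes, and 0 fell, against 17.3%. The 21 include Hist1h2be, which passed detection only through the group with both. The counts with Rspo2, Wnt3a and both depend on the test and the background correction. By the methods' t-test 0, 4 and 8 members rose at the adjusted p, against 0%, 4.87% and 8.51% of all probes. At an unadjusted p 17, 20 and 22 did, but the share of all probes at that p was not counted. With normexp correction 0, 0 and 1 rose at the adjusted p, against 0%, 0.193% and 1.98% of all probes. No member had a lower value at an unadjusted p under 0.05 in these limma fits or by the t-test. The estimate was above 0 for 29, 28 and 30 of the 31 members in the same order. Of the 22751 detected probes 11707, 11367 and 12367 were above 0. The 30 with both proteins became 24 under quantile normalization and 26 without scaling. With the percentile taken over probes detected on all arrays it became 25. The median log2 change over the 31 was 0.41 with Rspo2, 0.50 with Wnt3a and 0.58 with both, beside 0.01, -0.0003 and 0.04 over all detected probes. The 3 comparisons use the same 3 BSA arrays. The rises were small: at an adjusted p under 0.05 and at least 2-fold, 0 members were called higher with Rspo2 (0.101% of probes), 0 with Wnt3a (0.404%) and 1, Hist1h1b, with both (1.28%). At an unadjusted p and 2-fold the counts were the same by limma and by the methods' t-test. Some cell type markers moved with the treatments too. Krt8 stood at -0.23, -0.69 and -1.15 in the order Rspo2, Wnt3a and both, and Krt14 at 0.06, 0.66 and 1.24 (limma, adjusted p with both 0.000366 and 8.3e-06). Acta2 rose by 0.78 and Cdh5 fell by 0.55 with both. The basal marker Trp63 stood at -0.40 and the mesenchymal marker Pdgfrb at -0.60 with both, and each passed. Krt5, Vim, Fn1, Col1a1, Cd68 and Cd3e did not pass with both, although Krt5 stood at -0.84 with Rspo2 and Cd3e at -1.01 with Wnt3a. Their part in the histone differences was not tested.

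**Figure D1:**
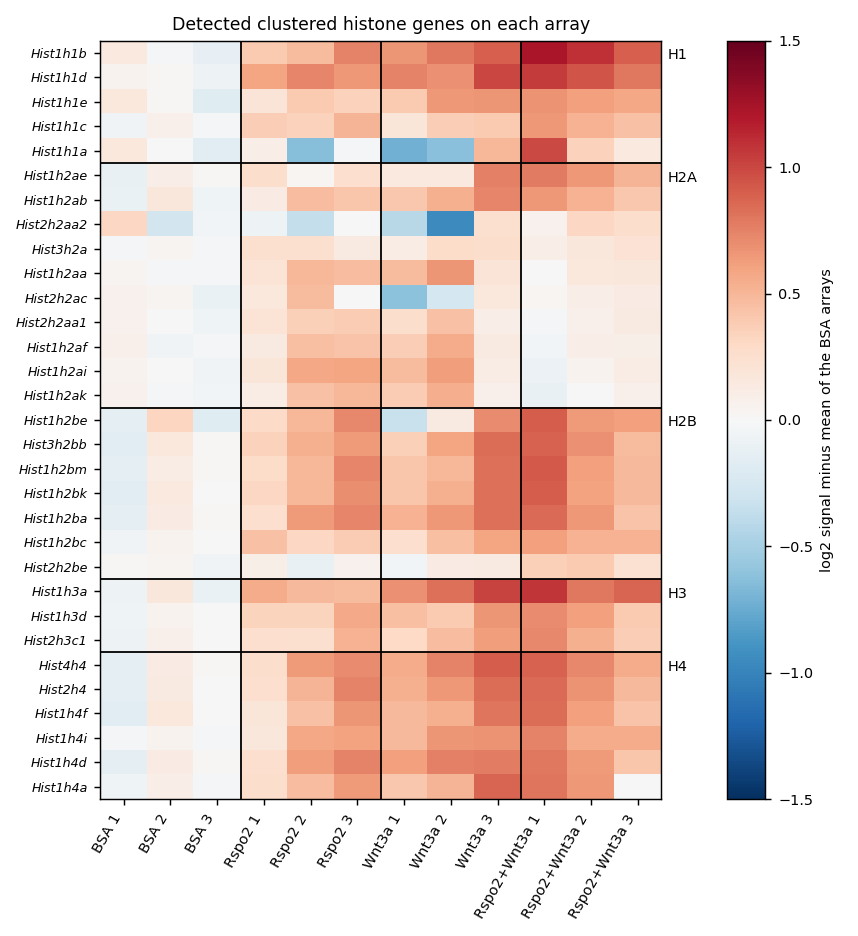
Each row is a detected clustered histone gene, grouped by class, and each column an array; color gives the log2 signal minus the mean of the 3 BSA arrays. Most rows of H1, H2B, H3 and H4 are red (higher) on the treated arrays. The lower H2A rows are palest with both proteins and on Wnt3a replicate 3, and most are also pale on Rspo2 replicate 1.

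The spread between arrays of a group was smaller than most of these differences. The 3 Rspo2 arrays were all above the 3 BSA arrays for 24 of 31 members, where 26.3% of detected probes showed this. The same held for 26 of 31 members with Wnt3a (25.9% of probes) and for 22 of 31 with both proteins (30.8% of probes), and no member had a treated group entirely below BSA. Hist1h2be, detected only through the group with both, is among the 22. Taken array by array, the median difference of the 31 members from the BSA mean was -0.06, 0.06 and -0.03 on the BSA arrays. It was 0.25, 0.46 and 0.53 with Rspo2, 0.40, 0.53 and 0.68 with Wnt3a, and 0.74, 0.60 and 0.43 with both proteins. All 9 treated arrays lay above the 3 controls. Among the 29 members above background on all 12 arrays, with only such probes in the fit, 17 rose with Rspo2, 24 with Wnt3a and 20 with both. Of all such probes 13.7%, 20.6% and 24.3% rose.

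Slide and treatment overlap in these data. On slide 1 were all BSA arrays plus the first Rspo2 array. The remaining Rspo2 arrays lay beside Wnt3a replicates 1 and 2 on slide 2, and Wnt3a replicate 3 lay beside all arrays of both proteins on slide 3. Within slide 1, Rspo2 replicate 1 was above the BSA mean for 30 of 31 members, by a median of 0.25 (0.03 over all detected probes). Within slide 2 Wnt3a differed from Rspo2 by a median of -0.01, with 13 of 31 members higher. Within slide 3 both proteins differed from Wnt3a replicate 3 by -0.09, with 4 of 31 higher. BSA shared no slide with Wnt3a or with both proteins, so for them slide and treatment cannot be told apart within a slide. A fit that took slide as a term carries the change from slide to slide through the single arrays they share. In it the medians were 0.25, 0.19 and 0.08 with Rspo2, Wnt3a and both, and 0 members passed in each comparison. At the adjusted p 0.136%, 0.189% and 0.809% of all probes passed as higher in the same fit. At an unadjusted p under 0.05 the counts of members in either direction were 6, 4 and 3. The share of all probes at an unadjusted p was not counted, so these counts have no background beside them. For Hist1h1b with both proteins the estimate went from 1.07 to 0.68 with slide as a term, and its standard error grew from 0.12 to 0.28.

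Signal strength also moved with the differences. Among detected probes of other genes with a mean intensity of 5000 to 50000 the median log2 change was 0.23, 0.28 and 0.27 for Rspo2, Wnt3a and both, and above 50000 it was 0.32, 0.42 and 0.36. Between 50 and 500 it was -0.10, -0.17 and -0.08. The 10 histone genes at 5000 to 50000 had medians of 0.50, 0.59 and 0.64, and the 7 at 50 to 500 had 0.31, 0.57 and 0.65, so in both ranges they were above the other probes. The 7 above 50000, which are 5 H2A and 2 H3 genes, had 0.35, 0.40 and 0.09, near the other probes with either protein and below them with both. Under quantile normalization, which gives all arrays 1 intensity distribution, the medians over the 31 members were 0.28, 0.32 and 0.43, and 7, 13 and 20 rose while 0, 1 and 0 fell. Of all probes 6.72%, 14.1% and 19.6% rose in that fit and 5.35%, 9.84% and 16.9% fell. The array percentile used for scaling was 951 to 1146 on the BSA arrays and 793 to 1022 on those with Rspo2. It was 774 to 899 after Wnt3a and 942 to 1058 after both. Without scaling, all detected probes shifted by a median of -0.23, -0.36 and -0.06, and the histone medians were 0.17, 0.15 and 0.48. The scaling takes 1 value from every probe of an array, so leaving it out cannot change the distance between these medians. In the fit without scaling 0, 4 and 19 members rose and 0, 2 and 0 fell. Of all probes 0.251%, 1.10% and 8.90% rose there and 9.92%, 37.4% and 15.7% fell. The part of signal strength in the histone differences was not tested.

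**Figure D2:**
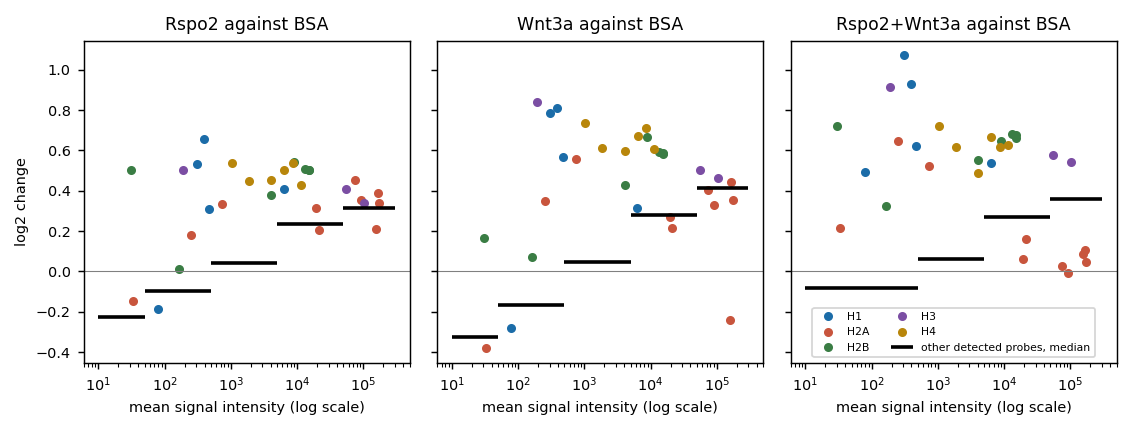
Log2 change of each detected histone gene (points, colored by class) against the mean signal intensity of its probe on a log axis, in the 3 comparisons with BSA; black bars are the median change of other detected probes in each intensity range. Bars are higher above 5000 than below 500, and the H2A points above 50000 lie below the bar with both proteins.

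H1 is the linker histone, and its members included the largest changes. Hist1h1b read -2.07, -2.25 and -2.34 with BSA, -1.83, -1.75 and -1.48 with Rspo2, -1.56, -1.42 and -1.32 with Wnt3a, and -0.996, -1.12 and -1.32 with both. All treated arrays were above all BSA arrays. The log2 change was 0.53 ± 0.12 (SE) with Rspo2 (limma, adjusted p = 0.0224), 0.78 ± 0.12 with Wnt3a (0.00165) and 1.07 ± 0.12 with both (0.000106). Without replicate 1 of both proteins this change fell under 2-fold and no member was called. Hist1h1d read -1.81, -1.84 and -1.93 with BSA, -1.26, -1.13 and -1.20 with Rspo2, -1.11, -1.17 and -0.86 with Wnt3a, and -0.81, -0.92 and -1.06 with both. Its groups did not overlap BSA either, and the change with both was 0.93 ± 0.10 (adjusted p = 6.62e-05). A second, dimmer probe of Hist1h1d gave 0.76 with both. Hist1h1a, the smallest change of the class with both, was dim and scattered. It read -3.42, -3.57 and -3.73 with BSA, -3.48, -4.22 and -3.59 with Rspo2, -4.29, -4.20 and -3.08 with Wnt3a, and -2.59, -3.23 and -3.43 with both. Its groups overlapped in each comparison, and 0.49 ± 0.33 with both did not pass (adjusted p = 0.259). Hist1h1c and Hist1h1e rose by 0.54 and 0.62 with both. With slide as a term Hist1h1b, Hist1h1d, Hist1h1a, Hist1h1c and Hist1h1e stood at 0.68, 0.55, -0.24, 0.36 and 0.30 with both, and none passed. In all, 3 of the 5 detected H1 genes rose with Rspo2, 4 with Wnt3a and 4 with the pair.

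H3 carries many of the modified residues of chromatin, and its 3 genes moved alike. Hist1h3a read -2.92, -2.68 and -2.94 with BSA, -2.29, -2.36 and -2.37 with Rspo2, -2.16, -2.02 and -1.84 with Wnt3a, and -1.77, -2.05 and -1.97 with both. The groups did not overlap BSA, and the change with both was 0.91 ± 0.11 (limma, adjusted p = 0.000143). Hist1h3d rose by 0.58 ± 0.11 with both (adjusted p = 0.00215), from 5.44, 5.57 and 5.52 with BSA to 6.22, 6.13 and 5.90. Hist2h3c1 had the smallest change of the class, 0.54 ± 0.12 (adjusted p = 0.00486), from 6.37, 6.53 and 6.45 to 7.17, 6.98 and 6.82. With Rspo2 2 of the 3 rose, and Hist2h3c1 stood at 0.34 ± 0.12 (adjusted p = 0.0729). With Wnt3a all 3 rose, by 0.46 to 0.84. With slide as a term Hist1h3a, Hist1h3d and Hist2h3c1 stood at 0.73, 0.22 and 0.18 with both, and none passed. The probes of Hist1h3d and Hist2h3c1 each list 4 transcripts, whereas that of Hist1h3a lists 1.

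H4 is the partner of H3 in the core. With Wnt3a all 6 H4 genes rose, by 0.60 to 0.74, and with both proteins 5 of 6 did, with estimates from 0.49 to 0.72 over the 6. With Rspo2 4 of 6 rose and the estimates were 0.43 to 0.54. Hist4h4, which lies apart from the large clusters on chromosome 6, read -0.50, -0.25 and -0.35 with BSA, -0.10, 0.27 and 0.35 with Rspo2, 0.19, 0.38 and 0.55 with Wnt3a, and 0.52, 0.35 and 0.19 with both. The change with both was 0.72 ± 0.14 (limma, adjusted p = 0.0026). Hist2h4, from the cluster on chromosome 3, read 2.17, 2.44 and 2.32 with BSA and 3.15, 2.98 and 2.79 with both, a rise of 0.67 ± 0.14 (adjusted p = 0.00382). The groups did not overlap BSA for either gene. Hist1h4a, from the cluster on chromosome 13, had the smallest change and overlapped BSA: 1.67, 1.83 and 1.70 with BSA against 2.54, 2.39 and 1.73 with both, or 0.49 ± 0.20 (adjusted p = 0.0745). Replicate 3 with both was low alone, and it rose with Wnt3a (0.60 ± 0.20, adjusted p = 0.0417). The probes of Hist1h4a, Hist1h4d and Hist1h4f list transcripts in common. With slide as a term Hist4h4, Hist2h4 and Hist1h4a stood at 0.05, 0.05 and -0.23 with both, and none passed.

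H2B pairs with H2A in the core. Of the 6 H2B genes above background on all arrays, 6 rose with both proteins in the fit of such probes. Among the 7 detected, 5 rose with Rspo2 and 5 with Wnt3a. With slide as a term the median over the 7 detected H2B genes with both was 0.03, against 0.66 without it. Hist3h2bb read 3.20, 3.52 and 3.38 with BSA, 3.72, 3.90 and 4.01 with Rspo2, 3.72, 3.96 and 4.20 with Wnt3a, and 4.25, 4.06 and 3.84 with both. The groups did not overlap BSA, and the change with both was 0.68 ± 0.15 (limma, adjusted p = 0.00445). Hist1h2bk and Hist1h2bm, whose probes list 4 transcripts each, followed the same course with 0.66 and 0.67, as did the testis gene Hist1h2ba with 0.65. With slide as a term the values of Hist1h2bk, Hist1h2bm and Hist1h2ba were 0.03, -0.03 and -0.02, so the direction of the last pair turned. Hist1h2be was not well above background on any BSA array and passed detection only through the group with both. Against a bound for BSA it stood at 1.38-fold with both. The filter favored a higher value there, so its adjusted p of 0.0328 (limma) is not taken as support for a rise. The bound sets the mean with both against the lowest signals well above background on the BSA arrays, and 1 of 3 Rspo2 and 1 of 3 Wnt3a arrays measured it. Its estimate turned to -0.31 with normexp correction and to -0.40 with slide as a term. Hist2h2be, which yields a polyadenylated mRNA in many cells, had the smallest change, from -2.60, -2.58 and -2.68 with BSA to -2.26, -2.23 and -2.40 with both (0.32 ± 0.09, adjusted p = 0.0126). With Rspo2 and Wnt3a it stood at 0.01 ± 0.09 and 0.07 ± 0.09 and overlapped BSA. Probes of Hist1h2bc disagreed: the brighter rose by 0.55 with both, and a dimmer one, with a cDNA accession of its own, gave -0.51 with both (adjusted p = 0.0516) and fell by 0.63 with Wnt3a (adjusted p = 0.0266). Of 8 further detected probes over the 8 genes with several probes, 6 had the sign of the chosen probe with both proteins, the exceptions being those of Hist1h2bc and Hist2h2aa2.

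**Figure D3:**
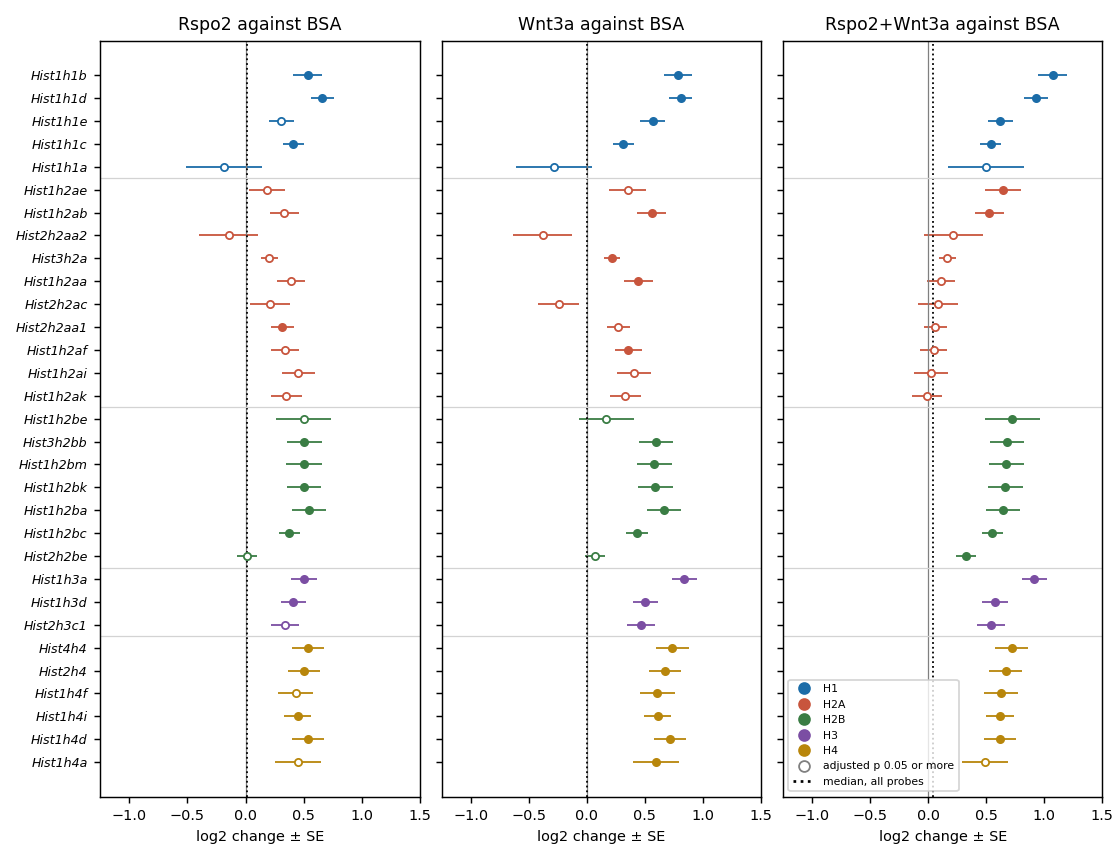
Log2 change ± SE from limma (3 arrays per group) for each detected clustered histone gene in the 3 comparisons with BSA; filled points have an adjusted p under 0.05 and dotted lines mark the median of all detected probes. With both proteins the filled points of H1, H2B, H3 and H4 lie between 0.32 and 1.07, and 8 of 10 H2A points are open. The filled point of Hist1h2be belongs to a gene that passed detection only through the group with both.

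H2A is the remaining core histone. Its 10 detected genes had medians of 0.32, 0.34 and 0.10 with Rspo2, Wnt3a and both, and 1, 4 and 2 of them rose, so a minority passed in each comparison. The median with both was -0.02 with the percentile taken over probes detected on all arrays, -0.22 under quantile normalization and -0.004 without scaling, so no direction is given for the class there. The difference between classes was not tested. With slide as a term the medians with both were 0.06 for H2A, 0.03 for H2B, 0.05 for H4, 0.22 for H3 and 0.36 for H1. Hist1h2ae read -2.31, -2.10 and -2.18 with BSA, -1.93, -2.16 and -1.95 with Rspo2, -2.05, -2.05 and -1.44 with Wnt3a, and -1.42, -1.55 and -1.68 with both. It rose with both (0.65 ± 0.16, limma, adjusted p = 0.00781), and its Rspo2 arrays overlapped BSA. Hist1h2ab rose by 0.52 ± 0.12 with both (adjusted p = 0.00734), from -0.80, -0.53 and -0.76 to -0.04, -0.18 and -0.30. With slide as a term Hist1h2ae and Hist1h2ab stood at 0.17 and -0.06 with both, and neither passed.

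The other 8 H2A genes did not pass with both proteins. Hist1h2ak had the smallest change: 6.51, 6.42 and 6.41 with BSA, 6.56, 6.89 and 6.95 with Rspo2, 6.82, 6.99 and 6.52 with Wnt3a, and 6.33, 6.45 and 6.53 with both. The combination overlapped BSA, at -0.01 ± 0.13 (limma, adjusted p = 0.965), while the Rspo2 and Wnt3a arrays were all above BSA by means of 0.35 ± 0.13 and 0.33 ± 0.13 (adjusted p = 0.0850 and 0.0777). Hist1h2aa, read with 1 listed transcript, read 7.27, 7.21 and 7.21 with BSA, 7.44, 7.72 and 7.69 with Rspo2, 7.70, 7.89 and 7.42 with Wnt3a, and 7.22, 7.39 and 7.39 with both. Hist1h2af, Hist1h2ai and Hist2h2aa1 ran alike. In each of these 5 genes the Wnt3a array on slide 3 was below the other two, which were on slide 2, and close to the arrays with both proteins on slide 3. The median of the 10 H2A genes was 0.32 and 0.49 on the Wnt3a arrays of slide 2, 0.17 on that of slide 3 and 0.01, 0.13 and 0.15 with both. With Rspo2 it was 0.17 on the array of slide 1, and 0.45 and 0.40 on those of slide 2. The higher H2A values with either protein were thus largest on slide 2, which held no BSA array. Within slide 3, 0 of 10 H2A genes were higher with both than with Wnt3a, by a median of -0.09, and the medians of H2B, H3 and H4 there were -0.15, -0.09 and -0.17. The lower H2A values with both cannot be told apart from slide 3. For the other classes the Wnt3a array of slide 3 went the other way: it was the highest of the 3 in 21 of 21 genes, and replicate 1 was the highest of the arrays with both in 20 of 21.

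**Figure D4:**
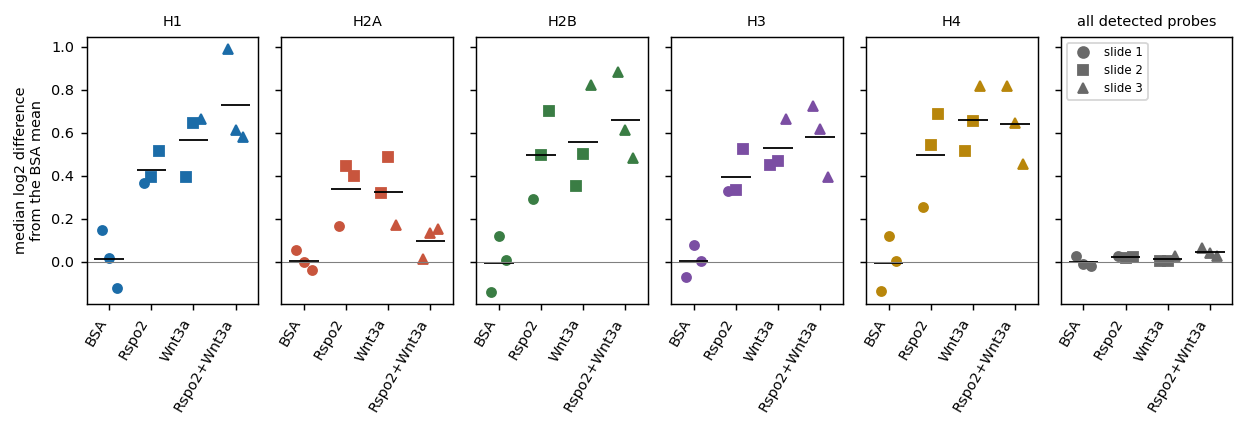
Median log2 difference from the BSA mean over the detected genes of each class, and over all detected probes, on each array; marker shapes give the slide and lines the group mean. H1, H2B, H3 and H4 lie above BSA on all treated arrays. H2A is at 0.17 or below on slide 3 and at 0.17 on the Rspo2 array of slide 1, against 0.32 to 0.49 on slide 2.

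Adding Rspo2 to Wnt3a moved no clustered histone gene past the test. Between both proteins and Wnt3a alone, 0 of 31 members rose (1.78% of probes did) and 0 fell (2.49%) by limma. At an unadjusted p under 0.05, 6 were higher and 4 lower by limma, and 1 was higher by the methods' t-test. The shares of all probes at an unadjusted p were not counted. The median difference was 0.07. Groups did not overlap for 2 members that were higher, Hist1h1c and Hist2h2be (10.7% of probes), and for 3 that were lower, Hist1h2aa, Hist1h2af and Hist1h2ai (10.6%). Without Wnt3a replicate 3, the Wnt3a array on slide 3, 4 members were higher and 4 lower at an adjusted p under 0.05, against 5.40% and 4.0% of probes in that fit.

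The interaction subtracts the sum of the changes with each single protein from that with the pair. It was negative for 25 of 31 members with a median of -0.41. Of the 22751 detected probes 11309 were above 0, and their median was -0.003 over all 22751. At an adjusted p under 0.05 it was below 0 for 6 members, against 5.31% of probes, and above 0 for 0, against 3.58% (0 at an unadjusted p). The 6 were Hist1h1d (-0.54 ± 0.14) and the H2A genes Hist1h2aa (-0.73 ± 0.17), Hist1h2af (-0.65 ± 0.17), Hist1h2ai (-0.83 ± 0.20), Hist1h2ak (-0.69 ± 0.19) and Hist2h2aa1 (-0.53 ± 0.14), with adjusted p from 0.0316 to 0.0451 (limma). Among other probes with an intensity above 50000, where 4 of these H2A genes also lie, the median interaction was -0.37. Without scaling 3 members were above 0 and 0 below at the adjusted p (32.4% and 0.554% of probes). The median over the members was then 0.09 and that over all probes 0.50, so the sign depends on the scaling. Scaling shifts all probes of an array by the same amount, so the distance between these medians was fixed and is no further result. Leaving out any 1 BSA array, either later Rspo2 array, Wnt3a replicate 1 or 2, or replicate 2 or 3 of both proteins left 0 members below 0 at the adjusted p. Of all probes 1.56% to 3.75% were below 0 in these fits. Without replicate 1 of both proteins 3 members were below 0, without Rspo2 replicate 1 there were 10, and without Wnt3a replicate 3 there were 6 below 0 and 2 above it. Of all probes 6.96%, 7.62% and 5.36% were below 0 there, and without Wnt3a replicate 3 5.48% were above it.

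The count with Rspo2 also leaned on single arrays, as did the share over all probes. The count went from 15 to 2 without BSA replicate 1, 3 without BSA replicate 2, 1 without BSA replicate 3, 4 without Rspo2 replicate 2, 1 without Rspo2 replicate 3 and 7 without replicate 2 of both proteins, whose spread enters the pooled variance. The share of all probes that rose went from 10.9% to 1.30%, 2.71%, 1.49%, 3.61%, 0.725% and 6.01% in the same order. The median change stayed between 0.36 and 0.45 in these fits. Without Rspo2 replicate 1, the Rspo2 array on the slide of the BSA arrays, the count was 20 and the median 0.48. Of all probes 10.7% rose there. With Wnt3a the count of members that rose was 17 to 22 and with both 19 to 22 when any 1 array was left out. Of all probes 12.4% to 18.6% and 15.3% to 23.5% rose in these fits. Without Wnt3a replicate 3, 2 members fell with Wnt3a, where 13.4% of probes fell.

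Genes that make or handle histones were read beside them. Genes listed as replication-independent variants, most of whose mRNAs carry poly(A) tails, had 10 of 11 members detected. Of these 3, 6 and 5 rose with Rspo2, Wnt3a and both (10.9%, 18.3% and 21.9% of all probes) and none fell, with medians of 0.32, 0.36 and 0.23. H1f0, the linker variant of resting cells, stood at 0.70 ± 0.15 with both (limma, adjusted p = 0.00419), and H3f3b, a gene for the variant H3.3, at 0.64 ± 0.09 (0.000399). The H2A variant gene H2afj stood at 0.36, 0.40 and 0.06 (adjusted p = 0.0706, 0.0348 and 0.730), so it rose with Wnt3a and did not pass with both.

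The 18 genes of histone gene transcription and mRNA processing moved in both directions. With both proteins 2 rose, a smaller share than the 21.9% of all probes, and 4 fell, near the 17.3% of all probes, and the median was 0.08. Slbp, which binds the stem-loop, rose by 0.30 with Rspo2, 0.38 with Wnt3a and 0.31 with both (adjusted p = 0.0302, 0.00486 and 0.00972, limma). Npat, a coactivator of the clustered genes, fell by 0.56, 0.61 and 0.41 (adjusted p = 0.0203, 0.00459 and 0.0207). The others that passed with both were Ncbp2, a cap-binding subunit (0.50), Zfp473, a component of the histone pre-mRNA machinery (-0.47), Zcchc11 (-0.39) and Sympk (-0.34). Of 14 histone chaperone genes 1, 8 and 6 rose and 0, 1 and 1 fell with Rspo2, Wnt3a and both, beside the same shares of all probes (10.9%, 18.3% and 21.9% higher). Asf1b (0.46) and Hat1 (0.45) had the largest rises with both, and Atrx fell by 0.43.

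S phase genes, for replication enzymes and their regulators, had 25 of 26 members on the array, all detected. With Rspo2 2 of them rose, with Wnt3a 12 and with both 14, and none fell at the adjusted p, where 10.9%, 18.3% and 21.9% of all probes rose. The share with Rspo2 was thus below that of all probes. The medians were 0.09, 0.28 and 0.27, beside 0.41, 0.50 and 0.58 for the clustered histone genes. With slide as a term they were 0.01, 0.17 and 0.21 beside 0.25, 0.19 and 0.08, so the order turned with both proteins. Rrm2, for the small subunit of ribonucleotide reductase, rose by 0.27, 0.57 and 0.68, and Ccne2, a cyclin of S phase entry, by 0.65 ± 0.15 with both (limma, adjusted p = 0.00541). Mcm2 to Mcm7, for the replicative helicase, had estimates from -0.12 to 0.25 with both and none passed. No gene of these 4 lists was called at 2-fold, and with slide as a term none passed.

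**Figure D5:**
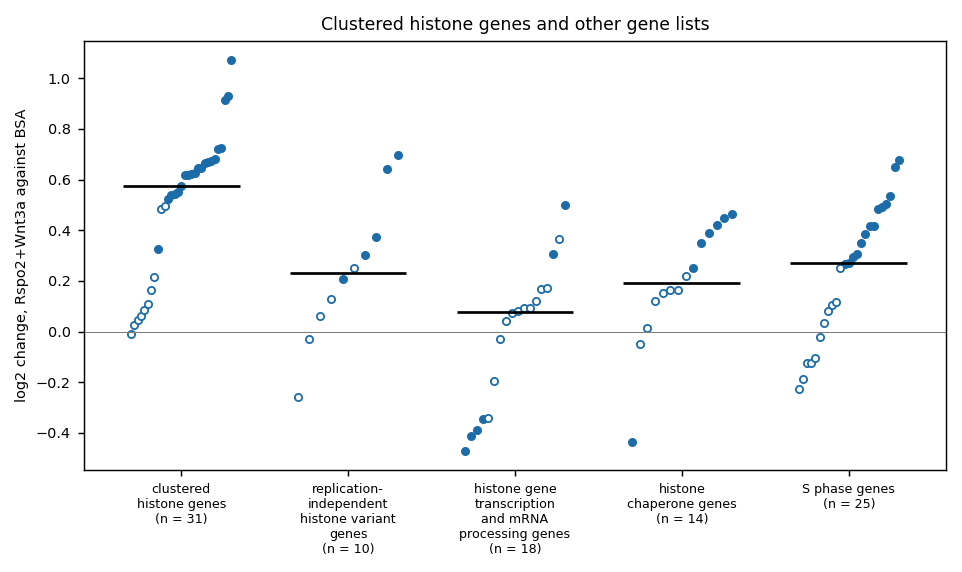
Log2 change with both proteins against BSA for the detected genes of each list, sorted within the list; filled points have an adjusted p under 0.05 and lines mark list medians. The clustered histone genes have a median of 0.58, and the other lists 0.08 to 0.27.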

How the data were processed

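All 12 arrays of the series were used. The authors' scanner software (Agilent Feature Extraction 9.5.3.1, per the submitters' processing notes) gave the deposited intensity of each spot after background subtraction, with flags for spots above background; these were not scaled between arrays. Per the file headers other columns hold the mean signal and local background intensity. The other deposited table holds ratio values, which the authors made by dividing signals by the 75th percentile of each array (array medians 0.05 to 0.08); it served as an alternative. Of 520548 spot values, 1327 marked as uneven or outliers were left out. Spots of a probe were averaged, converted to log2 and reduced by the array's 75th percentile. Detection required a probe above background on 3 of 3 arrays of a group (on 0.5 of its spots where repeated).

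One limma model (version 3.58.1, R 4.3.3; prior of 2.74 degrees of freedom) of all 12 arrays gave 5 comparisons, and p-values were adjusted by the Benjamini-Hochberg method over all detected probes. Replicate arrays correlated at 0.989 to 0.996. With 3 against 3 arrays an exact permutation test reaches at best p = 0.1 and was left out. Fits were tested on simulated data. Named genes were, per class, the 2 largest changes and the smallest with both proteins, and every gene called; others have fewer values. Members and lists were chosen with earlier results of these data known. Probes were named from the files, with 31 members matched by accession to the GRCm38.p6 annotation. Signal over background limits the precision of dim probes. The alternatives were other background corrections, scalings, filters, tests, blocks and probes, and leaving out each array. Probe sequences and protein sequences were not used here. Figures were drawn with matplotlib 3.10.9.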

Additional observations from a re-analysis of the deposited data

Results flagged for a closer look

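The effect of Rspo2 differed between cells with and without Wnt3a for 6 clustered histone genes, by the test of the interaction itself (limma, adjusted p under 0.05): Hist1h1d at -0.54, Hist1h2aa at -0.73, Hist1h2af at -0.65, Hist1h2ai at -0.83, Hist1h2ak at -0.69 and Hist2h2aa1 at -0.53 on the log2 scale. At the same adjusted p, 5.31% of all detected probes were below 0. Leaving out any of 9 of the 12 arrays left 0 of the members past the test, and without scaling 3 members were above 0 and 0 below. With slide as a term none of the 6 passed, and slide 3 held all 3 arrays with both proteins. Part of the 6 shares transcripts: the probes of Hist1h2af and Hist1h2ai both list Hist1h2ap.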

How the results depend on the processing

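Counts are members at an adjusted p under 0.05, and medians are log2 changes over the members. The count with Rspo2 (15) was 0 with normexp, 7 with quantile normalization, 8 with the percentile over probes detected on all arrays, 1 without a filter, 7 with the looser flag, 0 by the methods' t-test, 6 with slide as a random block, and 0 with slide as a term or without scaling, where the median was 0.25 and 0.17. The share of all probes that rose (10.9%) was 0%, 6.72%, 5.05%, 0.117%, 5.22%, 0%, 5.93%, 0.136% and 0.251% in the same order. The count with Wnt3a (22) was 0 with normexp, 14 with quantile normalization (median 0.32, 1 at 2-fold), 4 by the t-test, 0 with slide as a term (0.19) and 6 without scaling (0.15). Of all probes 0.193%, 14.1%, 4.87%, 0.189% and 1.10% rose with Wnt3a in these fits, and 0.286%, 9.84%, 1.92%, 0.607% and 37.4% fell. The count with both (21) was 1 with normexp, 8 by the t-test and 0 with slide as a term (0.0811), and at 2-fold (1) it was 4 with quantile normalization and 0 with normexp, the other percentile, slide as a term or no scaling. Of all probes 1.98%, 8.51% and 0.809% rose with both under normexp, the t-test and slide as a term. Both against Wnt3a gave 4 without scaling (median 0.33) and a median of -0.0874 with slide as a term. The interaction count (6) was 1 with quantile normalization, 2 with the other percentile, 3 without scaling, all above 0 where the 6 were below it (2 at 2-fold, median 0.0892), and 0 with normexp, no filter, the looser flag or slide in either form. With the replicate block the counts were 1, 18, 21, 0 and 0 in the order of the report; the numbers share no stated source, and same-numbered arrays correlated at -0.41 to 0.27. Leaving out 1 array gave 1 to 20 with Rspo2 (medians 0.36 to 0.48), 17 to 23 with Wnt3a (0.47 to 0.55), 19 to 22 with both (0.52 to 0.67, 0 to 1 at 2-fold), 0 to 8 for both against Wnt3a (-0.03 to 0.15, 0 to 1 at 2-fold) and 0 to 10 for the interaction (-0.50 to -0.30, 0 to 2 at 2-fold). With both proteins the sign turned with normexp for Hist1h2be (-0.31) and Hist1h2ak (0.0929), with slide as a term for Hist1h2be (-0.40), Hist1h2ab (-0.0587), Hist1h2ak (0.0270), Hist1h4a (-0.23), Hist1h1a (-0.24), Hist1h2ba (-0.02), Hist1h2bm (-0.03), Hist1h4f (-0.03), Hist2h2aa2 (-0.60) and Hist2h2ac (-0.59), and for Hist1h2ak without BSA replicate 1 or replicate 1 of both (leaving out 1 array gave -0.0538 to 0.0434); the interaction of Hist1h1d was 0.0643 with its dimmest probe. Outside the fit with slide as a term this list of turned signs is not complete. With both proteins 24 of 31 members were above 0 with quantile normalization, 25 with the other percentile and 26 without scaling. The main fit had 30. The cause was not tested. The fit without scaling was added after the data were seen.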
